A study of Homo sapiens with 24 samples.

Results

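The messenger RNAs described here encode the machinery that removes poly(A) tails and caps and degrades RNA. They are 50 of the 34618 genes in the count table, taken by symbol from a list that was drawn up with earlier results of these data known. By complex they comprise 10 subunits of the CCR4-NOT deadenylase, 3 genes of the PAN2-PAN3 and PARN deadenylases, 12 decapping genes, 2 exonucleases that degrade RNA from its 5′ end, 7 genes of nonsense-mediated decay, 12 genes of the RNA exosome and 4 genes of the SKI complex and ribosome rescue. RNA was sequenced from HepG2, an established line from a human liver carcinoma, after infection with a lentiviral short hairpin RNA against SETD2 (shSETD2), a hairpin against METTL14 (shMETTL14) or a non-specific control hairpin (shCtrl). SETD2 writes the H3K36 trimethyl mark on chromatin, and METTL14 is a subunit of the complex that places m6A on RNA.

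Per the labels, all 3 lines were made by infection with virus from HEK293T cells and selection in puromycin at 1 ug/mL, so that shCtrl cells went through the same steps. Cells were taken before actinomycin D (0 h) or after 1, 3 or 6 h in actinomycin D at 5 ug/mL, a drug that blocks transcription, with 2 libraries for each line and time and 24 libraries in all. The labels name 1 hairpin per line and no clone, so a line is a selected population, and an effect of that hairpin cannot be told apart from loss of its target. The series' design text calls the libraries of a group biological replicates. Whether these were separate cultures was not given in the sources used here. The p-values therefore reflect the spread between libraries, which may be technical.

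In the cytoplasm, most mRNAs are first shortened at the poly(A) tail by PAN2-PAN3 and CCR4-NOT. The cap is then removed by DCP2 with its partners, and the body is degraded from the 5′ end by XRN1 or from the 3′ end by the exosome, which the SKI complex feeds. Nonsense-mediated decay sends transcripts with a premature stop codon into these routes, and m6A readers recruit CCR4-NOT to marked transcripts.

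Total counts ran from 18308638 to 31402091 per library. At 0 h, SETD2 was at 90.4 and 81.7 CPM in shSETD2, against 131 and 129 CPM in shCtrl (log2 fold change -0.59 ± 0.06, adjusted p = 1.2e-07). METTL14 was at 15.005 and 13.9 CPM in shMETTL14, against 29.3 and 30.0 CPM in shCtrl (-1.03 ± 0.10, adjusted p = 1.26e-08). METTL14 also stood at 38.0 and 38.6 CPM in shSETD2, above both shCtrl libraries (0.37 ± 0.09, adjusted p = 0.0026), a rise lost in 5 of 13 other settings. CPM here are counts scaled to library size with TMM factors, and errors of fold changes are standard errors of the edgeR fit. All 10 hepatocyte markers were expressed in all 24 libraries, with a summed level at 0 h of 101961 to 102909 CPM in shSETD2, 61014 to 61301 CPM in shMETTL14 and 53199 to 53263 CPM in shCtrl. Of 6 fibroblast markers DCN had 0 counts in all 24 libraries, while PDGFRB (7.59 to 48.9 CPM) and COL1A1 (4.03 to 19.1 CPM) were present in all, and the summed level at 0 h was 18.5 to 19.2 CPM in shSETD2, 28.5 to 30.9 CPM in shMETTL14 and 13.2 to 13.5 CPM in shCtrl. Of 6 blood markers PTPRC had 0 counts in all 24 libraries, while LYZ was at 1044 to 5053 CPM, and the summed level at 0 h was 1371 to 1378 CPM in shSETD2, 2074 to 2133 CPM in shMETTL14 and 1047 to 1090 CPM in shCtrl. Of 4 endothelial markers KDR had 0 counts in all 24 libraries and PECAM1 was not matched, and the summed level at 0 h was 0.881 to 0.906 CPM in shSETD2, 1.09 to 1.37 CPM in shMETTL14 and 0.277 to 0.310 CPM in shCtrl. The 2 shSETD2 libraries at 6 h stood apart, with an SD of the log2 difference between replicates of 0.330 over all genes, against 0.159 to 0.240 in the other 11 groups. The part of these differences in the results below was not tested beyond the values given with each result.

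The promoters of DCP2, EXOSC2 and EXOSC5 are printed because these genes had the largest rise and the largest falls before actinomycin D, a choice made after their values were seen. Each run is the 150 bases upstream of the RefSeq start in GRCh38.p14, read 5′ to 3′ on the strand of the gene: chr5:112976648-112976797 on the plus strand for DCP2, chr9:130693610-130693759 on the plus strand for EXOSC2 and chr19:41397360-41397509 on the minus strand for EXOSC5. Capitals mark the letters CCAAT, and GGGCGG, which Sp1-type factors bind, on either strand.
DCP2: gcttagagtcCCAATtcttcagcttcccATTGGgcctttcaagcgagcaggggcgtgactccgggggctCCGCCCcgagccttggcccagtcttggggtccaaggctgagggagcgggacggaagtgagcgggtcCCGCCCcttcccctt
EXOSC2: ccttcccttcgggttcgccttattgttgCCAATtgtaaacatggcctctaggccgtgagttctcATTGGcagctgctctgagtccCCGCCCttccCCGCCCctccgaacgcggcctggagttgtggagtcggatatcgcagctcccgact
EXOSC5: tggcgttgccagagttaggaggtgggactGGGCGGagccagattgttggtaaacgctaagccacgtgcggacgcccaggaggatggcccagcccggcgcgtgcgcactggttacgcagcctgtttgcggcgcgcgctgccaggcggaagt
DCP2, which rose, and EXOSC2, which fell in shMETTL14, each carried 2 CCAAT and 2 GGGCGG matches in this window, and EXOSC5 carried 1 GGGCGG match. RefSeq windows of 300 bases, from 250 bases before to 50 after the start, were matched for 45 of the 50 members (SKIV2L and TTC37 under their current symbols SKIC2 and SKIC3). The 6 motifs named here were searched on both strands, and the letters of none contain those of another. GGGCGG was found in 35 of 45 member windows (77.8%), against 44.6% of all 27305 windows. CCAAT was found in 37.8% of member windows and 35.7% of all, and the ETS letters CCGGAAG in 15.6% and 10.7%. The YY1 letters AAGATGG were found in 17.8% of member windows, against 6.06% of all, and the NRF1 letters GCGCATGC in 11.1%, against 3.27%. The TATA letters TATAAA were found in 1 member window, that of EXOSC8, and in 3264 of all 27305. Among the 25 windows of members that fell in shMETTL14, 6 held the YY1 letters and 5 the NRF1 letters. These shares are descriptions of the windows and were not tested.

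Before transcription was blocked, 33 of the 50 members differed between shMETTL14 and shCtrl, of which 27 were lower and 6 higher. Over all 14887 genes tested, 48.1% differed, with 25.1% lower and 23.1% higher. The median log2 fold change was -0.19 over the members and -0.01 over all genes. Between shSETD2 and shCtrl 16 members differed, 7 higher and 9 lower, where 40.6% of all genes differed, 21.6% higher and 18.9% lower. Here the median was 0.03 over the members and 0.02 over all genes, and the members' share of 32% was under the share of all genes. Scaled to library totals alone, 3 members rose and 22 fell in shSETD2, where that scaling also lowered the median of all genes. Both comparisons use the same 2 shCtrl libraries. The falls of CNOT11, PARN, DCPS, SMG5, DIS3 and TTC37 in shMETTL14 were lost when scaled to library totals alone, with adjusted p values of up to 0.131. In the other direction, 15 of the 34 members that did not pass in shSETD2 passed in at least 1 other setting. Of these, 12 passed as lower. In shMETTL14 10 of the 17 did so, 9 of them as lower. The matching shares of all genes are not given here, so these counts describe the members alone. In these bulk libraries fewer cells of a type and less RNA per cell cannot be told apart, and every level is relative to the total RNA sequenced.

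DCP2 and CNOT6L were higher, and EXOSC5 and CNOT3 were lower, in each knockdown line, and the exosome was the complex with the most falls in shMETTL14. Of 12 exosome genes, 10 fell and 0 rose in shMETTL14, while 4 fell and 1 rose in shSETD2. The shares of all genes were 25.1% lower and 23.1% higher in shMETTL14, and 18.9% lower and 21.6% higher in shSETD2. All 12 stood below 0 in shMETTL14, with a median log2 fold change of -0.33, against -0.04 in shSETD2. Under the 13 other settings and leave-outs run on the 0 h comparisons, between 8 and 12 exosome genes fell in shMETTL14 and none rose, and between 1 and 6 fell in shSETD2. The lowest count in shSETD2 was without shSETD2 replicate 2 at 0 h and the highest by library totals alone. In shSETD2 6 of the 12 lay below 0, and 10 did by library totals alone, with limma on RPKM or without the GC trend, so the contrast between the lines varied with the scaling. Between the knockdown lines, 30 members differed at 0 h, 27 higher and 3 lower in shSETD2, where 52.2% of all genes differed, 29.2% higher and 23% lower. Scaling to the library total alone gave 13 higher and 11 lower. That scaling moved the median of all genes to -0.18 for shSETD2 minus shMETTL14, against 0.03 with TMM, and to -0.14 for shSETD2 minus shCtrl, against 0.02.

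**Figure D1:**
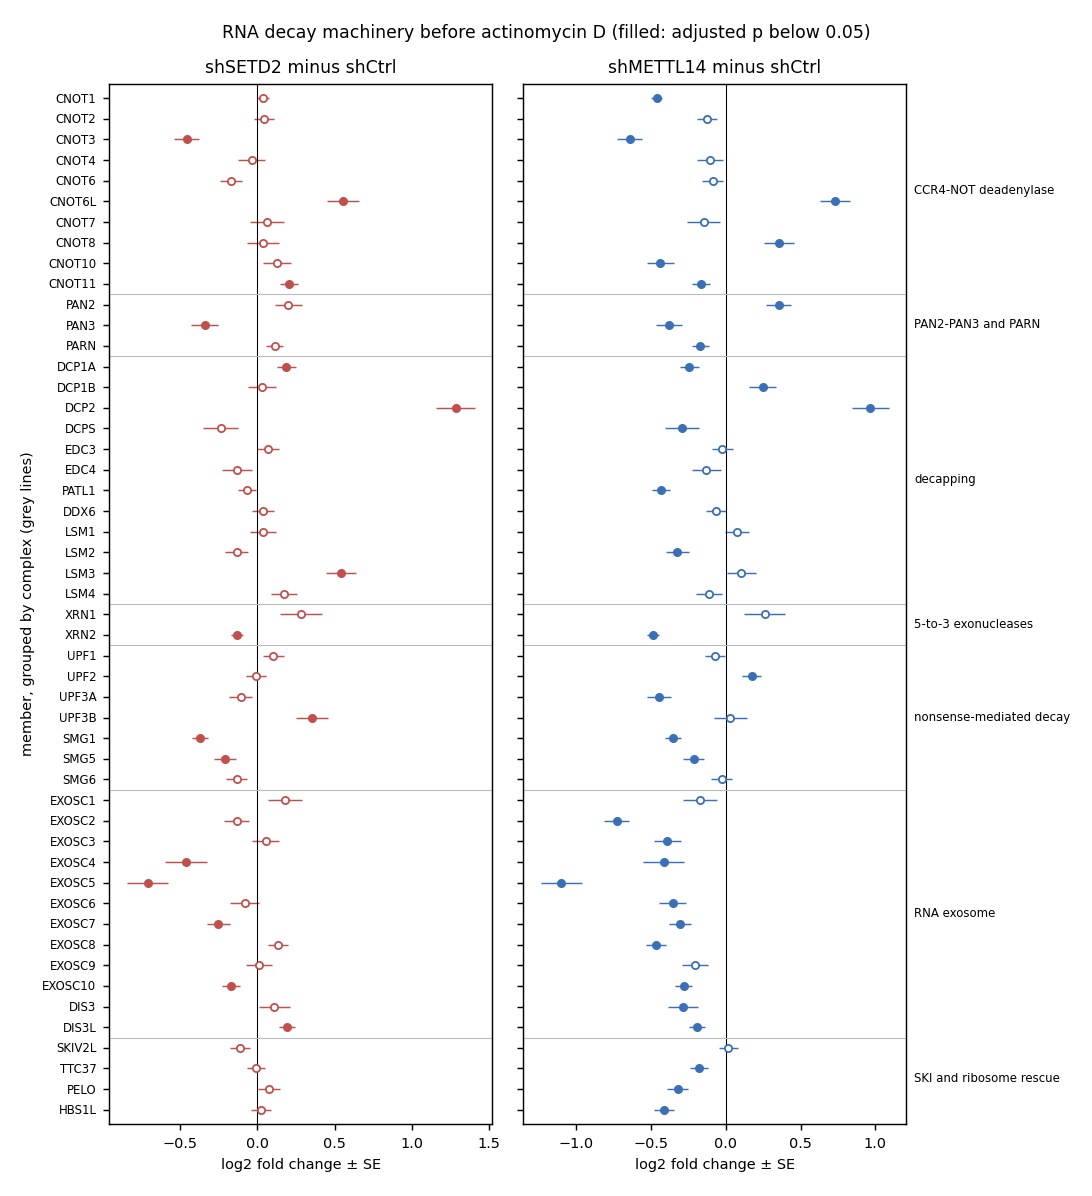
Log2 fold change at 0 h of each of the 50 members in shSETD2 minus shCtrl (left) and shMETTL14 minus shCtrl (right), with bars of 1 standard error, grouped by complex. Filled points passed an adjusted p of 0.05, and on the right all 12 exosome genes lie below 0.

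Among the decapping genes, DCP2, the enzyme that cuts the cap, had the largest rise of any member. The gene lies at chr5:112312399-112356667 on the plus strand in GRCh37, the build of the files. DCP2 stood at 145 and 152 CPM in shSETD2, 117 and 120.1 CPM in shMETTL14, and 61.9 and 59.7 CPM in shCtrl. All libraries of both knockdown lines lay above both shCtrl libraries. The level was 2.44-fold higher in shSETD2 (log2 1.28 ± 0.13, adjusted p = 1.43e-07) and 1.95-fold higher in shMETTL14 (0.97 ± 0.12, adjusted p = 4.15e-06). After 6 h of actinomycin D it was 60.3 and 83.5 CPM in shSETD2, 67.5 and 76.9 CPM in shMETTL14, and 33.5 and 42.9 CPM in shCtrl, so that the knockdown libraries still lay above the control ones.

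The partners of DCP2 did not move as a group. DCP1A, a cofactor of DCP2, was at 77.8 and 75.1 CPM in shSETD2, 55.9 and 57.6 CPM in shMETTL14, and 68.0 and 66.4 CPM in shCtrl. It lay above shCtrl in shSETD2 (0.19 ± 0.06, adjusted p = 0.0151) and below it in shMETTL14 (-0.24 ± 0.06, adjusted p = 0.00199). The rise in shSETD2 passed the threshold in only 3 of the 13 other settings. DCP1B, the paralog of DCP1A, was at 15.97 and 15.02 CPM in shMETTL14, above the 13.9 and 12.3 CPM of shCtrl (0.25 ± 0.09, adjusted p = 0.0276), and was lost in 9 of the 13 other settings. LSM3, a subunit of the ring of Lsm proteins that binds shortened tails and, in another form, U6 RNA, stood at 30.2 and 30.7 CPM in shSETD2, 22.2 and 22.8 CPM in shMETTL14, and 20.98 and 20.9 CPM in shCtrl. Only shSETD2 differed from shCtrl (0.54 ± 0.10, adjusted p = 0.000107), and the shSETD2 libraries also lay above those of shMETTL14 (0.44 ± 0.10, adjusted p = 0.000583), a call lost with limma on RPKM (adjusted p up to 0.0683). PATL1, which bridges the decapping and deadenylase factors, fell in shMETTL14 (-0.43 ± 0.06, adjusted p = 2.22e-06), as did LSM2 (-0.32 ± 0.08, adjusted p = 0.00142). DCPS, the scavenger enzyme that hydrolyses the cap left after decay from the 3′ end, was at 8.98 and 8.65 CPM in shSETD2, 9.11 and 7.83 CPM in shMETTL14, and 9.80 and 10.96 CPM in shCtrl. It fell in shMETTL14 (-0.29 ± 0.11, adjusted p = 0.0353) and missed the threshold in shSETD2 (-0.24 ± 0.11, adjusted p = 0.102). The DCPS call in shMETTL14 was lost in 5 of 13 other settings, and the value in shSETD2 passed as lower in 6 of 13. EDC3, EDC4, DDX6, LSM1 and LSM4 did not pass in either line, with log2 fold changes between -0.13 and 0.17.

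Of 10 subunits of the CCR4-NOT deadenylase, 4 fell and 2 rose in shMETTL14, and 1 fell and 2 rose in shSETD2. Over all genes 25.1% fell and 23.1% rose in shMETTL14, and 18.9% fell and 21.6% rose in shSETD2. CNOT1, the scaffold on which the complex is built, was at 872 and 868 CPM in shSETD2, 611 and 620.1 CPM in shMETTL14, and 864 and 833 CPM in shCtrl. The shMETTL14 libraries lay below all others (-0.46 ± 0.04 against shCtrl, adjusted p = 9.85e-10), and shSETD2 did not differ from shCtrl (0.04 ± 0.04, adjusted p = 0.469), a small value that turned to -0.12 when scaled to library totals alone. CNOT3, a subunit of the NOT module, was at 34.3 and 31.2 CPM in shSETD2, 29.01 and 28.6 CPM in shMETTL14, and 45.5 and 44.6 CPM in shCtrl. It fell in both lines, by 0.46 ± 0.08 in shSETD2 (adjusted p = 8.98e-05) and by 0.64 ± 0.08 in shMETTL14 (adjusted p = 8.73e-07), with no overlap of the groups.

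CNOT6L, a deadenylase subunit of the CCR4 type, stood at 35.7 and 39.1 CPM in shSETD2, 40.1 and 44.1 CPM in shMETTL14, and 25.7 and 25.1 CPM in shCtrl. It was 1.47-fold higher in shSETD2 (0.56 ± 0.10, adjusted p = 0.000151) and 1.66-fold higher in shMETTL14 (0.73 ± 0.10, adjusted p = 3.48e-06). Its paralog CNOT6 did not pass in either line (-0.17 ± 0.07, adjusted p = 0.061, in shSETD2 and -0.09 ± 0.07, adjusted p = 0.326, in shMETTL14), but in shSETD2 it passed as lower in 10 of 13 other settings, with an adjusted p down to 0.000137. CNOT8, a deadenylase subunit of the CAF1 type, was at 50.2 and 48.2 CPM in shSETD2, 58.5 and 64.6 CPM in shMETTL14, and 48.3 and 47.8 CPM in shCtrl. It rose in shMETTL14 (0.36 ± 0.10, adjusted p = 0.00582). Without shCtrl replicate 1, shCtrl replicate 2 or shMETTL14 replicate 2 at 0 h that call was lost, with an adjusted p of up to 0.252. CNOT7, the paralog of CNOT8, was at 110.4 and 111 CPM in shSETD2, 91.9 and 99.9 CPM in shMETTL14, and 107 and 106 CPM in shCtrl, and neither difference passed (adjusted p = 0.7 and 0.287). CNOT10 and CNOT11, which form a module at the end of CNOT1, both fell in shMETTL14, by 0.44 ± 0.09 (adjusted p = 0.000309) and by 0.17 ± 0.06 (adjusted p = 0.0244). CNOT11 was at 171 and 171 CPM in shSETD2, 129.7 and 135 CPM in shMETTL14, and 151 and 147 CPM in shCtrl, and its rise in shSETD2 (0.20 ± 0.06, adjusted p = 0.00772) was lost in 8 of 13 other settings.

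**Figure D2:**
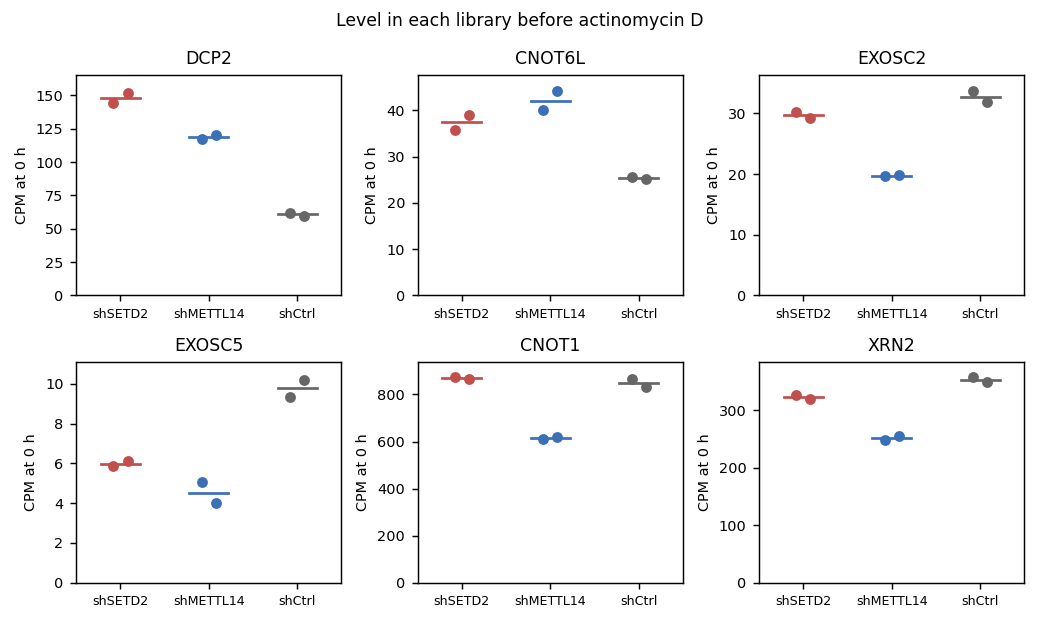
CPM at 0 h of 6 members in shSETD2, shMETTL14 and shCtrl, with a point per library, a line at the mean of the 2 libraries and a vertical axis from 0. DCP2 and CNOT6L lie above shCtrl in both knockdown lines and EXOSC5 below it, while EXOSC2 and CNOT1 are low in shMETTL14.

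PAN2, the nuclease that starts tail shortening, was at 20.9 and 21.9 CPM in shSETD2, 24.1 and 23.3 CPM in shMETTL14, and 19.9 and 17.4 CPM in shCtrl. It rose in shMETTL14 (0.35 ± 0.09, adjusted p = 0.00166), a call lost without shCtrl replicate 2 or shMETTL14 replicate 1 at 0 h (adjusted p up to 0.243). PAN3, the adaptor that brings PAN2 to mRNA, moved the other way. It was at 31.2 and 32.6 CPM in shSETD2, 32.2 and 29.8 CPM in shMETTL14, and 41.6 and 39.2 CPM in shCtrl, below shCtrl in all 4 knockdown libraries. It fell by 0.34 ± 0.09 in shSETD2 (log2 scale, adjusted p = 0.00278) and by 0.38 ± 0.09 in shMETTL14 (adjusted p = 0.000832). PARN, a deadenylase that also trims noncoding RNAs, was at 88.1 and 82.8 CPM in shSETD2, 68.7 and 72.0 CPM in shMETTL14, and 77.4 and 80.8 CPM in shCtrl. It was lower in shMETTL14 (-0.17 ± 0.06, adjusted p = 0.0149) and did not pass in shSETD2 (0.11 ± 0.06, adjusted p = 0.115).

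The 2 exonucleases that work from the 5′ end differed. XRN2, the nuclear enzyme that also ends transcription, was at 326 and 319 CPM in shSETD2, 248.9 and 254 CPM in shMETTL14, and 357 and 349.8 CPM in shCtrl. Libraries of the 3 lines did not overlap, and XRN2 fell by 0.13 ± 0.04 in shSETD2 (adjusted p = 0.0123) and by 0.49 ± 0.04 in shMETTL14 (adjusted p = 1.22e-09). The smaller fall no longer passed without shSETD2 replicate 2 at 0 h or with no filter on low counts (adjusted p up to 0.102). XRN1, the cytoplasmic enzyme, was at 52.6 and 53.0 CPM in shSETD2, 53.0 and 50.7 CPM in shMETTL14, and 45.7 and 41.1 CPM in shCtrl. Both knockdown lines lay above shCtrl, but neither difference passed (0.29 ± 0.14, adjusted p = 0.106, and 0.26 ± 0.14, adjusted p = 0.126).

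In nonsense-mediated decay, SMG1, the kinase that phosphorylates UPF1, was at 380.2 and 373 CPM in shSETD2, 376 and 388 CPM in shMETTL14, and 496 and 477 CPM in shCtrl. All 4 knockdown libraries lay below shCtrl, and the level fell by 0.37 ± 0.05 in shSETD2 (adjusted p = 6.05e-06) and by 0.35 ± 0.05 in shMETTL14 (adjusted p = 9.41e-06). SMG1 has near-identical pseudogene copies, so its counts are uncertain. SMG5, which binds phosphorylated UPF1, fell by 0.21 ± 0.07 in shSETD2 (adjusted p = 0.0199) and by 0.22 ± 0.07 in shMETTL14 (adjusted p = 0.0142). The fall in shSETD2 was lost without shSETD2 replicate 1 at 0 h, where the adjusted p was 0.154. SMG6, the endonuclease of the pathway, was at 46.5 and 45.9 CPM in shSETD2, 51.0 and 48.7 CPM in shMETTL14, and 52.8 and 48.8 CPM in shCtrl, and did not pass (adjusted p = 0.135 and 0.779), but in shSETD2 it passed as lower in 8 of 13 other settings (adjusted p down to 0.00199). UPF1, the helicase at its centre, was at 120.0 and 121 CPM in shSETD2, 108 and 105 CPM in shMETTL14, and 113 and 112 CPM in shCtrl, and did not pass against shCtrl (adjusted p = 0.235 and 0.384). UPF2, which links UPF1 to UPF3 proteins, was at 47.7 and 47.9 CPM in shSETD2, 54.6 and 53.8 CPM in shMETTL14, and 48.9 and 47.2 CPM in shCtrl. Its rise in shMETTL14 (0.17 ± 0.06, adjusted p = 0.0289) was lost in 7 of 13 other settings. The paralogs UPF3A and UPF3B, which connect the pathway to exon junctions, each passed in a different line: UPF3A fell in shMETTL14 (-0.45 ± 0.08, adjusted p = 5.45e-05) and UPF3B rose in shSETD2 (0.35 ± 0.11, adjusted p = 0.0102). UPF3B was at 14.7 and 15.7 CPM in shSETD2, 11.98 and 12.3 CPM in shMETTL14, and 12.2 and 11.5 CPM in shCtrl. The UPF3B call was lost in 6 of 13 other settings, among them library totals alone and without either shCtrl library at 0 h (adjusted p up to 0.227).

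The falls in the RNA exosome took in its cap, its ring and its nucleases. EXOSC5, a ring subunit at chr19:41892279-41903384 on the minus strand in GRCh37, had the largest fall of any member. It was at 5.86 and 6.10 CPM in shSETD2, 5.05 and 4.02 CPM in shMETTL14, and 9.36 and 10.2 CPM in shCtrl, so that both knockdown lines lay below shCtrl. It fell by 0.71 ± 0.14 in shSETD2 (adjusted p = 0.000189) and by 1.10 ± 0.14 in shMETTL14 (adjusted p = 7.9e-07), or 1.64-fold and 2.14-fold lower. EXOSC2, a cap subunit at chr9:133569108-133580248 on the plus strand in GRCh37, was at 30.3 and 29.3 CPM in shSETD2, 19.6 and 19.8 CPM in shMETTL14, and 33.7 and 31.8 CPM in shCtrl. It was 1.66-fold lower in shMETTL14 (-0.73 ± 0.08, adjusted p = 2.35e-07) and did not pass in shSETD2 (-0.13 ± 0.08, adjusted p = 0.21). In shSETD2 it passed as lower in 5 of 13 other settings (adjusted p down to 0.00561). The difference between the knockdown lines also passed (0.60 ± 0.08, adjusted p = 3.74e-06).

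EXOSC8, another ring subunit, was at 41.3 and 41.4 CPM in shSETD2, 27.5 and 26.8 CPM in shMETTL14, and 36.1 and 39.1 CPM in shCtrl. It fell in shMETTL14 (-0.47 ± 0.07, adjusted p = 4.76e-06), and its difference between the knockdown lines passed as well (0.60 ± 0.07, adjusted p = 1.02e-07). EXOSC4 was at 8.67 and 8.36 CPM in shSETD2, 8.64 and 8.99 CPM in shMETTL14, and 11.6 and 11.9 CPM in shCtrl, and fell in both lines (-0.46 ± 0.14, adjusted p = 0.00925, and -0.42 ± 0.14, adjusted p = 0.0139). Its call in shMETTL14 was lost in 2 of 13 other settings. EXOSC7 was at 22.8 and 20.4 CPM in shSETD2, 20.6 and 21.1 CPM in shMETTL14, and 24.6 and 27.0 CPM in shCtrl, and also fell in both (-0.25 ± 0.07, adjusted p = 0.00833, and -0.31 ± 0.07, adjusted p = 0.0014). Without shSETD2 replicate 2 at 0 h the falls of EXOSC4, EXOSC7 and EXOSC10 in shSETD2 were lost, with adjusted p values of up to 0.0589, 0.137 and 0.245 over the alternatives. EXOSC3, a cap subunit, was at 25.2 and 25.3 CPM in shSETD2, 18.9 and 18.1 CPM in shMETTL14, and 24.5 and 24.2 CPM in shCtrl, with a fall in shMETTL14 (-0.39 ± 0.09, adjusted p = 0.00122).

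Of the exosome's nucleases, EXOSC10, found mainly in the nucleus, was at 88.7 and 80.9 CPM in shSETD2, 79.0 and 78.1 CPM in shMETTL14, and 91.3 and 99.5 CPM in shCtrl. It fell by 0.17 ± 0.06 in shSETD2 (adjusted p = 0.0178) and by 0.28 ± 0.06 in shMETTL14 (adjusted p = 0.000232). DIS3, the main processive nuclease, was at 82.9 and 83.6 CPM in shSETD2, 64.5 and 62.0 CPM in shMETTL14, and 76.6 and 77.8 CPM in shCtrl. The shMETTL14 libraries were lowest (-0.29 ± 0.10, adjusted p = 0.0244), a call lost when scaled to library totals alone (adjusted p up to 0.125), and shSETD2 did not pass (0.11 ± 0.10, adjusted p = 0.414). DIS3L, its cytoplasmic relative, was at 60.9 and 60.8 CPM in shSETD2, 46.5 and 46.8 CPM in shMETTL14, and 51.6 and 55.0 CPM in shCtrl. It rose by 0.19 ± 0.05 in shSETD2 (adjusted p = 0.00608) and fell by 0.19 ± 0.05 in shMETTL14 (adjusted p = 0.00513), and the rise was lost in 8 of 13 other settings.

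SKIV2L, the helicase of the SKI complex, was at 52.2 and 53.1 CPM in shSETD2, 59.6 and 55.4 CPM in shMETTL14, and 55.9 and 57.7 CPM in shCtrl. SKIV2L did not pass in either line (adjusted p = 0.193 and 0.848), but in shSETD2 it passed as lower in 5 of 13 other settings. TTC37, its scaffold, fell by 0.18 ± 0.06 in shMETTL14 (adjusted p = 0.0132). HBS1L and PELO, which together release ribosomes stalled at the end of an mRNA, fell in shMETTL14 by 0.41 ± 0.07 (adjusted p = 1.4e-05) and by 0.32 ± 0.07 (adjusted p = 0.000704). None of the 4 genes passed in shSETD2 in the main fit.

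Compared per length, levels at 0 h ranged widely among members. In shCtrl, RPKM ran from 2.93 ± 0.27 for PAN2 to 116 ± 1 for XRN2 (SD, n = 2), with a median of 9.45 over the members. CNOT1 at 89.6 ± 2.1 RPKM and CNOT11 at 61.2 ± 1.0 RPKM came next, far above the other CCR4-NOT subunits, of which CNOT7 was highest at 18.3 ± 0.1 RPKM and CNOT6L lowest at 3.11 ± 0.04 RPKM. The 9 subunits of the exosome barrel, EXOSC1 to EXOSC9, lay between 5.54 ± 0.04 RPKM for EXOSC1 and 25.2 ± 1.5 RPKM for EXOSC6. RPKM are scaled to library totals, and the lines were compared on RPKM only as an alternative, with limma.

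Counts of some members may include reads of a neighbour, since use of strand in counting was not given in the sources used here. PELO lies within ITGA1 on the same strand, and ITGA1 averaged 190.2 CPM over all libraries against 13.6 CPM for PELO. PAN2 overlaps CNPY2 on the same strand. On the other strand, CNOT1, CNOT2, CNOT3, CNOT7, CNOT8, CNOT11, EDC3, LSM1, LSM3, SMG6, EXOSC3, EXOSC7, EXOSC8, EXOSC9, DIS3 and SKIV2L overlap expressed genes, such as ZDHHC3 at EXOSC7 and XPC at LSM3. EXOSC2, EXOSC5, DCP2, CNOT6L and XRN2 overlap no gene above 1 CPM.

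After transcription was blocked, most member RNAs changed relative to the rest of the RNA, in both directions. The slope is the least-squares change per hour in log2 level over 0, 1, 3 and 6 h, so a negative value means that an RNA was lost faster than the average RNA. It passed for 41 members in shSETD2 (26 falling, 15 rising), 45 in shMETTL14 (31 falling, 14 rising) and 41 in shCtrl (24 falling, 17 rising). Over all genes 70.4% passed in shSETD2 (36.2% falling, 34.2% rising), 73.1% in shMETTL14 (34.8% falling, 38.2% rising) and 71.1% in shCtrl (33.2% falling, 37.8% rising). The median slope of the members was -0.04, -0.05 and -0.01 log2 per h in these lines, and -0.0013, 0.011 and 0.013 over all genes.

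PELO had the most negative slope of the members in each line. At 6 h it stood at 4.70 and 4.37 CPM in shSETD2, 2.59 and 2.51 CPM in shMETTL14, and 3.32 and 2.84 CPM in shCtrl, which is 14.2%, 10.6% and 10.2% of the 0 h level in each line. Its slope was -0.47 ± 0.02, -0.55 ± 0.02 and -0.55 ± 0.02 log2 per h in shSETD2, shMETTL14 and shCtrl. CNOT4, an E3 ubiquitin ligase that joins CCR4-NOT loosely, was at 3.32 and 3.91 CPM after 6 h in shSETD2, 4.22 and 5.31 CPM in shMETTL14, and 4.77 and 6.03 CPM in shCtrl, or 13.6%, 18.9% and 19.8% of 0 h. In shSETD2 its slope of -0.46 log2 per h was close to that of PELO, and the share left at 6 h was smaller. DCP1B fell to 2.46 and 3.19 CPM in shSETD2, 2.95 and 2.27 CPM in shMETTL14, and 3.16 and 2.54 CPM in shCtrl, or 21.2%, 16.8% and 21.8% of 0 h. The libraries of the 3 lines overlapped for DCP1B, and the lowest count of any member in any library was 39.

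The steepest rises in shCtrl were those of PAN2, LSM4 and SKIV2L. PAN2 reached 50.9 and 45.0 CPM at 6 h in shSETD2, 48.5 and 47.5 CPM in shMETTL14, and 41.4 and 37.6 CPM in shCtrl. LSM4, a subunit shared by the nuclear and cytoplasmic Lsm rings, reached 114 and 86.6 CPM in shSETD2, 82.7 and 82.2 CPM in shMETTL14, and 83.4 and 82.4 CPM in shCtrl. SKIV2L reached 106 and 93.6 CPM in shSETD2, 104 and 98.2 CPM in shMETTL14, and 103 and 96.1 CPM in shCtrl. Their slopes in shCtrl were 0.17 ± 0.01, 0.17 ± 0.01 and 0.13 ± 0.01 log2 per h, so these RNAs took a growing share of what remained in every line.

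In shCtrl 6 CCR4-NOT subunits fell and 1 rose, 8 exosome genes fell and 2 rose, and 6 decapping genes fell and 5 rose. Of the 7 genes of nonsense-mediated decay 4 rose and 1 fell, and of the 4 SKI and rescue genes 3 rose and only PELO fell. In shSETD2 and in shMETTL14, 9 exosome genes fell and 3 rose. Of the genes of nonsense-mediated decay, 3 rose and 2 fell in shSETD2, and 3 rose and 4 fell in shMETTL14. Over all genes 36.2% fell and 34.2% rose in shSETD2, 34.8% and 38.2% in shMETTL14, and 33.2% and 37.8% in shCtrl. Whether a complex differed from these shares was not tested.

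The paralogous deadenylase subunits had unlike slopes in all lines. CNOT6L fell to 18.9% of 0 h after 6 h in shSETD2, 25.9% in shMETTL14 and 24.6% in shCtrl, while CNOT6 stood at 68.4%, 76.8% and 95.5%. CNOT8 fell to 35.5% in shSETD2, 32.9% in shMETTL14 and 30.2% in shCtrl, while CNOT7 stood at 96.2%, 107% and 100.1%. The slopes of CNOT6L and CNOT8 in shCtrl were -0.34 ± 0.02 and -0.29 ± 0.02 log2 per h, against -0.0090 ± 0.011 for CNOT6 and 0.0043 ± 0.018 for CNOT7. The difference between paralogs was not tested.

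**Figure D3:**
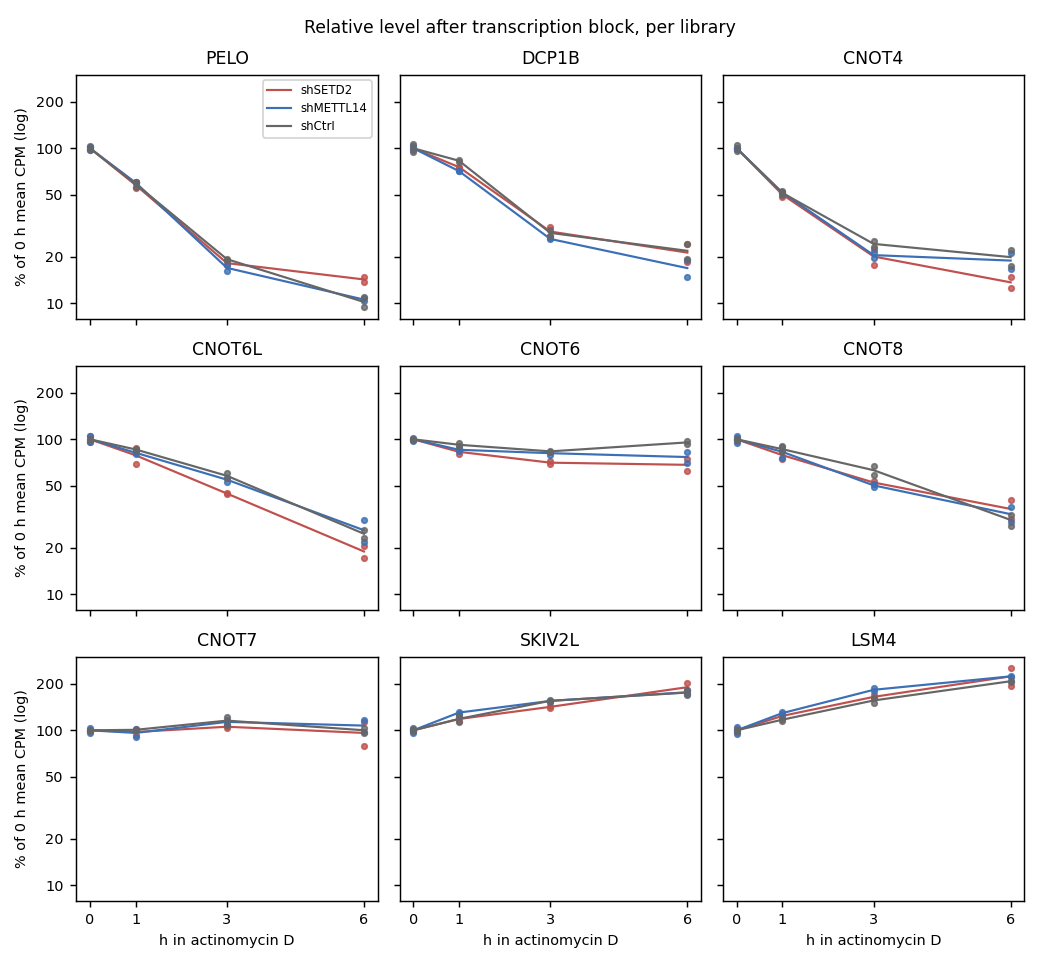
Level of 9 members as a percent of the mean 0 h level of the same line, on a log axis, against hours in actinomycin D, with a point per library and lines through the means of 2 libraries. PELO, DCP1B and CNOT4 fall fastest in shCtrl, and CNOT6L and CNOT8 fall to under 40% of 0 h. CNOT6 stands at 68.4% in shSETD2 and 95.5% in shCtrl at 6 h. CNOT7 stays near 100%, and SKIV2L and LSM4 rise.

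Slopes differed from shCtrl for 8 members in shSETD2 (7 more negative, 1 more positive) and for 5 in shMETTL14 (all 5 more negative). Over all genes 7.94% passed in shSETD2, 6.45% more negative and 1.49% more positive, and 5.21% passed in shMETTL14, 3.35% more negative and 1.85% more positive. CNOT2, the NOT module partner of CNOT3, and SMG1 were more negative in both lines, in comparisons that share the shCtrl libraries. Slopes fitted over 0, 1 and 3 h alone gave 0 members in either comparison. There edgeR gave an unadjusted p under 0.05 for 7 members in shSETD2 and 6 in shMETTL14. The share of all genes under that p is not given here. The counts varied when single libraries at 0 h or at 6 h were left out and the filter and scaling were redone. Without shSETD2 replicate 2 at 6 h, 25 members passed in shSETD2, and so did 25.1% of all genes. Without either shCtrl library at 0 h, most of the few members that passed in shSETD2 were more positive. In shMETTL14 those that passed were more positive without shMETTL14 replicate 2 or either shCtrl library at 0 h. Removing a trend with transcript GC content turned the split in shSETD2 to 4 more negative and 4 more positive, RLE scaling gave 4 and 3, and a filter at a mean of 5 CPM gave 3 and 7. In shMETTL14 that filter gave 3 more negative and 3 more positive. Apart from the 25.1% above, shares of all genes in these settings are not given here.

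SMG1 had the smallest adjusted p among the members. In shSETD2 it was at 296 and 306 CPM at 1 h, 251 and 262 CPM at 3 h and 227 and 263 CPM at 6 h. In shMETTL14 it was at 291 and 299.8 CPM at 1 h, 278 and 279 CPM at 3 h and 262 and 269 CPM at 6 h. In shCtrl it was at 385 and 403 CPM at 1 h, 389 and 409.8 CPM at 3 h and 432 and 441 CPM at 6 h. Both knockdown lines ended below their 1 h level and shCtrl above it, and the slope difference was -0.082 ± 0.012 log2 per h in shSETD2 (adjusted p = 0.000135) and -0.061 ± 0.012 in shMETTL14 (adjusted p = 0.00235). In shMETTL14 the call was lost when any 1 of the shCtrl or shMETTL14 libraries at 0 h was left out, with an adjusted p of up to 0.361 over the alternatives.

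CNOT2 was at 22.3 and 21.6 CPM after 6 h in shSETD2, 19.8 and 20.9 CPM in shMETTL14, and 28.2 and 31.8 CPM in shCtrl. Both knockdown lines lay below shCtrl at 6 h, while at 0 h neither difference passed (adjusted p = 0.62 and 0.121). The slope difference was -0.085 ± 0.017 log2 per h in shSETD2 (adjusted p = 0.00281) and -0.077 ± 0.017 in shMETTL14 (adjusted p = 0.0062). Without either shCtrl library at 0 h both calls were lost, and that in shMETTL14 also without either shMETTL14 library at 0 h, shMETTL14 replicate 1 at 6 h or shCtrl replicate 2 at 6 h, with adjusted p values of up to 0.524 and 0.551 over the alternatives. PAN3 was at 13.6 and 18.7 CPM after 6 h in shSETD2, 20.7 and 22.6 CPM in shMETTL14, and 29.5 and 29.2 CPM in shCtrl. The 2 shSETD2 libraries differed from each other by more than those of the other lines. Its slope differed in shSETD2 (-0.10 ± 0.02, adjusted p = 0.00511) and not in shMETTL14 (0.00 ± 0.02, adjusted p = 0.985), and the difference between the knockdown lines passed too (-0.10 ± 0.02, adjusted p = 0.00442). Against shCtrl the PAN3 call was lost without either shCtrl library at 0 h or shSETD2 replicate 1 at 6 h (adjusted p up to 0.383).

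DIS3 was at 33.4 and 45.1 CPM after 6 h in shSETD2, 30.2 and 36.2 CPM in shMETTL14, and 48.1 and 54.0 CPM in shCtrl. Its slope difference in shSETD2 (-0.080 ± 0.024, adjusted p = 0.0431) was lost in 21 of 28 other settings. EDC3, an enhancer of decapping, was at 29.2 and 26.1 CPM after 6 h in shSETD2, 16.7 and 18.3 CPM in shMETTL14, and 20.98 and 19.3 CPM in shCtrl. The shSETD2 libraries were highest, and EDC3 was the only member whose slope was more positive in shSETD2 than in shCtrl (0.065 ± 0.017, adjusted p = 0.0234). That call was lost in 6 of 28 other settings, among them without either shSETD2 library at 0 h, shSETD2 replicate 1 at 6 h or shCtrl replicate 2 at 6 h (adjusted p up to 0.732).

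PARN was at 84.4 and 90.1 CPM after 6 h in shSETD2, 59.3 and 59.8 CPM in shMETTL14, and 84.7 and 88.9 CPM in shCtrl. The slope was lower in shMETTL14 than in shCtrl (-0.065 ± 0.012, adjusted p = 0.00217) and than in shSETD2, where the shSETD2 minus shMETTL14 difference was 0.048 ± 0.013 (adjusted p = 0.0176). The call against shCtrl was lost without either shCtrl library or shMETTL14 replicate 2 at 0 h (adjusted p up to 0.36). UPF1 was at 145 and 118 CPM after 6 h in shSETD2, 101 and 101 CPM in shMETTL14, and 133 and 122 CPM in shCtrl. Its slope difference in shMETTL14 (-0.056 ± 0.015, adjusted p = 0.0286) was lost in 12 of 28 other settings. Between the knockdown lines 7 members passed, 5 more positive and 2 more negative in shSETD2, where 9.61% of all genes passed, 3.2% more positive and 6.4% more negative. Without shSETD2 replicate 2 at 6 h, 24 members passed, and so did 23.1% of all genes.

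**Figure D4:**
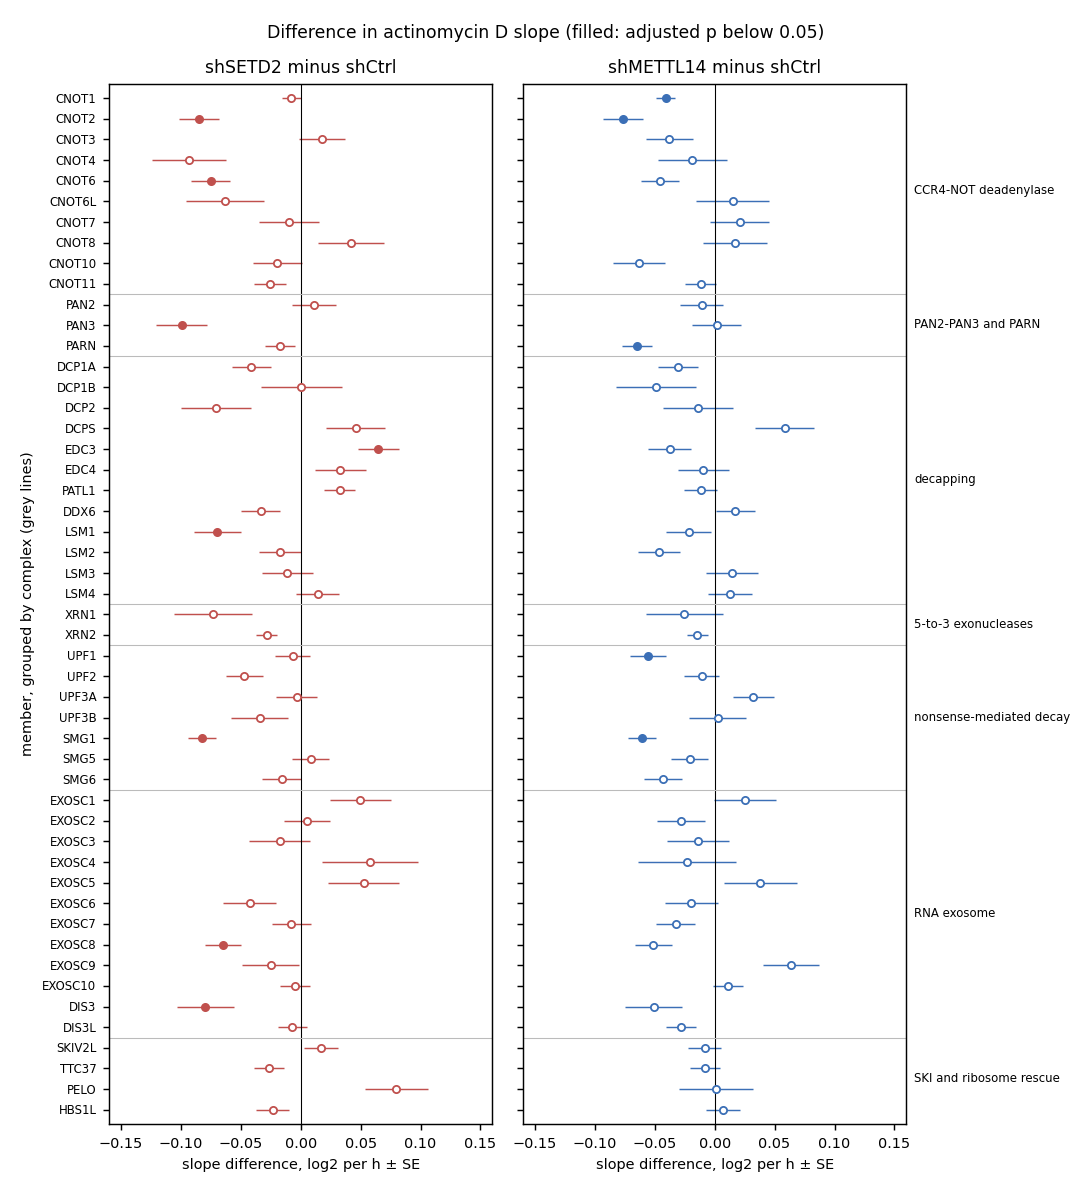
Difference in actinomycin D slope, in log2 per h, of each member in shSETD2 minus shCtrl (left) and shMETTL14 minus shCtrl (right), with bars of 1 standard error, grouped by complex. Filled points passed an adjusted p of 0.05, 8 on the left and 5 on the right, and nearly all values lie within 0.10 of 0.

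The authors' deposited table gives half-lives for 36 of the 50 members and 7772 genes in all. In the authors' deposited table the median over these members was 4.45 h in shSETD2, 4.60 h in shMETTL14 and 7.21 h in shCtrl, against 4.13, 4.31 and 6.02 h over all genes listed. The half-life was shorter than in shCtrl for 33 of 36 members in shSETD2 and 35 of 36 in shMETTL14, and in the authors' deposited table the same held for 88.2% and 88.8% of all genes. The 14 members with no half-life there are PAN2, CNOT7, SMG5, SKIV2L, LSM4, LSM3, EXOSC1, HBS1L, UPF3A, EXOSC7, DCPS, UPF3B, EXOSC5 and TTC37, and among them are PAN2, LSM4 and SKIV2L, the steepest rises described above.

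PELO had the shortest half-life of the members in the authors' deposited table, at 1.66 h in shSETD2, 1.47 h in shMETTL14 and 1.59 h in shCtrl. LSM1, the subunit that sets the cytoplasmic Lsm ring apart, had the longest in shCtrl. It had 6.40 h in shSETD2, 9.97 h in shMETTL14 and 48.6 h in shCtrl in the authors' deposited table. These values exceed the 6 h followed. At 6 h the relative level of LSM1 was 89.3% of 0 h in shSETD2, 109% in shMETTL14 and 119% in shCtrl. Of the RNAs whose slope difference passed, CNOT2 had 2.26 h in shSETD2, 2.31 h in shMETTL14 and 3.40 h in shCtrl, and SMG1 had 4.40 h, 4.98 h and 12.3 h in the authors' deposited table. EDC3, EXOSC4 and PELO were the members with a longer half-life in shSETD2 than in shCtrl, and EXOSC9 the only such member in shMETTL14, at 2.92 h against 2.74 h in shCtrl in the authors' deposited table.

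The deposited half-lives and the slopes computed here ordered the members nearly alike, with Spearman's rho across the 36 members of 0.998 in shSETD2, 0.995 in shMETTL14 and 0.998 in shCtrl between decay rate and slope. This is a description across genes measured in the same libraries. The rate implied by the authors' deposited table, minus 1 halving per half-life, differed from the relative slope. The amount varied less among most genes of a line than between shCtrl and either knockdown line. That amount had a median of -0.131 log2 per h in shSETD2, -0.129 in shMETTL14 and -0.0711 in shCtrl over 7683 genes, and of -0.132, -0.128 and -0.0701 over the 36 members. Its range between the 5th and 95th percentile of these genes was -0.140 to -0.122 in shSETD2, -0.146 to -0.117 in shMETTL14 and -0.0917 to -0.0560 in shCtrl. By the relative slopes, the members' median difference from shCtrl was -0.017 log2 per h in shSETD2 and -0.014 in shMETTL14. What set the shift in the deposited values, and its part in the shorter half-lives of the knockdown lines, was not tested.

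**Figure D5:**
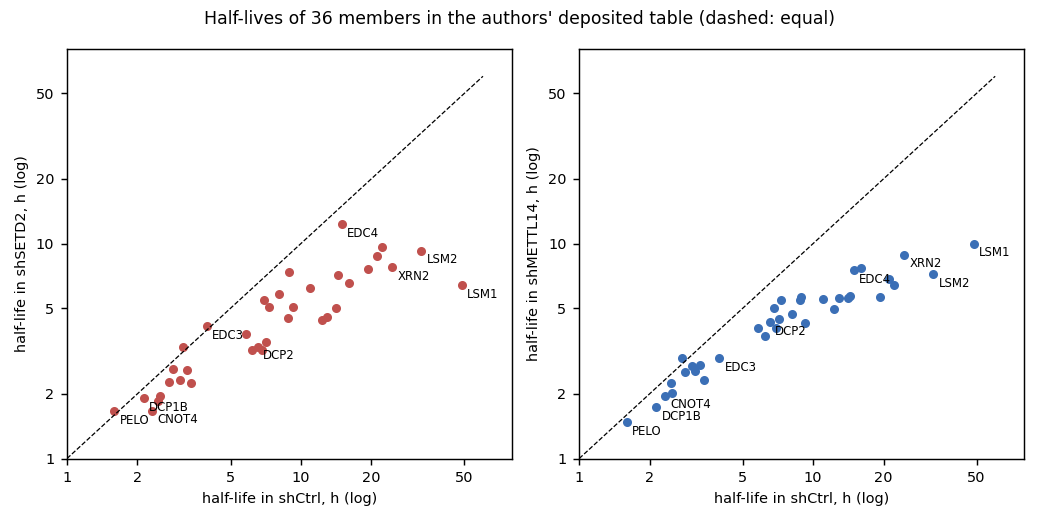
Half-life in hours of 36 members in the authors' deposited table, in shSETD2 (left) and shMETTL14 (right) against shCtrl, on log axes, with a dashed line at equal values. Points lie below the line for 33 members on the left and 35 on the right.

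A list of 70 further genes of RNA decay, such as poly(A)-binding proteins, exon junction factors and terminal uridylyltransferases, is given for comparison. All 70 were tested, and at 0 h 41 differed between shMETTL14 and shCtrl, 35 lower and 6 higher, with a median of -0.18. This is 58.6%, against 48.1% of all genes. Between shSETD2 and shCtrl 26 differed, 16 lower and 10 higher, with a median of -0.01. This is 37.1%, against 40.6% of all genes. PABPC1 and PABPC4, which coat poly(A) tails, fell in shMETTL14 by 0.57 ± 0.04 (adjusted p = 2.79e-11) and 0.52 ± 0.05 (adjusted p = 3.1e-09), while PABPC1 rose in shSETD2 (0.19 ± 0.04, adjusted p = 0.000326). TNRC6B, which links microRNA-bound Argonaute to CCR4-NOT, was at 90.9 and 92.1 CPM in shSETD2, 111 and 119.8 CPM in shMETTL14, and 65.0 and 64.3 CPM in shCtrl, and rose in both lines (0.50 ± 0.07, adjusted p = 1.97e-06, and 0.83 ± 0.07, adjusted p = 5.23e-10). GTPBP2, which acts on stalled ribosomes, was at 41.0 and 39.0 CPM in shSETD2, 39.6 and 39.0 CPM in shMETTL14, and 73.7 and 79.0 CPM in shCtrl, and fell in both (-0.93 ± 0.08, adjusted p = 1.86e-09, and -0.96 ± 0.08, adjusted p = 9.98e-10). PNRC2, a cofactor of decapping in nonsense-mediated decay, rose by 0.85 ± 0.10 in shSETD2 (adjusted p = 3.12e-07) and by 0.37 ± 0.10 in shMETTL14 (adjusted p = 0.00419). NBAS, a factor of nonsense-mediated decay at the endoplasmic reticulum, rose in shSETD2 (0.36 ± 0.05, adjusted p = 8.07e-06).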

How the data were processed

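RNA of 24 libraries was analysed, 2 for each of 3 lines at 4 times. The deposited table holds read counts and RPKM per gene. Per the submitters' processing notes, cutadapt, TopHat, HTSeq 0.6.1p1 and GRCh37 were used by the authors to make the counts. Per the file headers, RPKM stand beside the counts as the authors' values, and here each equals the count scaled by exon length and column total. The authors' deposited table of half-lives is in hours, and its scaling was not given in the sources used here. Per the labels, ERCC spike-in RNA was added, and 0 ERCC entries are among the genes used here, so every level is relative to the other RNA of its library.

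Counts were fitted with edgeR 4.0.16 (TMM, filterByExpr, quasi-likelihood, robust) in R 4.3.3 in a single model of 12 groups with 12 residual degrees of freedom. Of 34618 genes, 14887 were tested, all 50 members among them, and p-values were adjusted by Benjamini-Hochberg over all tested genes with a threshold of 0.05. Slopes are least-squares slopes of the group means on hours. Alternatives used DESeq2 1.42.0 and limma 3.58.1 on log2(RPKM + 0.1) and log2(RPKM + 1), other scaling and filters, other time windows, a replicate block and each library left out. The scripts were tested on simulated counts.

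The members and all gene lists were chosen with earlier results of these data known. Values in every library are given for up to 6 largest rises and falls at 0 h against shCtrl, up to 4 largest slope differences each way, the 3 steepest slopes each way in shCtrl and a fixed set of central enzymes and scaffolds. Of the other decay genes, up to 4 with the smallest p in a comparison are named. DCP2, EXOSC2 and EXOSC5 were chosen for their promoters after their values were seen. Depth was 18308638 to 31402091 counts, so that 3 counts amount to 0.0936 to 0.196 CPM.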

Additional observations from a re-analysis of the deposited data

Results flagged for a closer look

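Each result here is a difference in actinomycin D slope, in log2 per h, that passed edgeR's test of the difference between 2 lines, adjusted over all genes. No other result met a rule for a closer look.

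For shSETD2 minus shCtrl the differences were -0.085 for CNOT2, -0.075 for CNOT6, -0.10 for PAN3 and 0.065 for EDC3. They were -0.070 for LSM1, -0.082 for SMG1, -0.065 for EXOSC8 and -0.080 for DIS3. CNOT6 was at 42.8 and 51.0 CPM after 6 h in shSETD2 and at 71.6 and 75.6 CPM in shCtrl (adjusted p = 0.00577), and its call was lost in 5 of 28 other settings, among them without either shCtrl library at 0 h (adjusted p up to 0.325). EXOSC8 was at 29.3 and 31.7 CPM after 6 h in shSETD2 and at 37.9 and 38.8 CPM in shCtrl (adjusted p = 0.0104), and its call was lost in 10 of 28 other settings. LSM1 was at 22.2 and 21.7 CPM in shSETD2 and at 26.6 and 30.5 CPM in shCtrl (adjusted p = 0.0286), and its call was lost in 17 of 28. The SMG1 call was lost in 1 of 28, with slopes over 0, 1 and 3 h (adjusted p = 0.0618).

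For shMETTL14 minus shCtrl the differences were -0.041 for CNOT1, -0.077 for CNOT2, -0.065 for PARN, -0.056 for UPF1 and -0.061 for SMG1. CNOT1 was at 582 and 591 CPM after 6 h in shMETTL14 and at 945 and 922 CPM in shCtrl (adjusted p = 0.0033). That call was lost without any 1 of the shMETTL14 or shCtrl libraries at 0 h.

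For shSETD2 minus shMETTL14 the differences were 0.033 for CNOT1, -0.10 for PAN3, 0.048 for PARN, 0.10 for EDC3, 0.044 for PATL1, 0.049 for UPF1 and -0.089 for EXOSC9. EXOSC9 was at 10.3 and 10.5 CPM after 6 h in shSETD2 and at 11.3 and 13.4 CPM in shMETTL14 (adjusted p = 0.0196), and its call was lost in 10 of 28 other settings. Those of CNOT1, PAN3 and EDC3 were lost in 1 of 28, with slopes over 0, 1 and 3 h. That of PARN was lost in 4 of 28, among them without shSETD2 replicate 2 at 0 h or either shMETTL14 library at 6 h (adjusted p up to 0.762). Those of PATL1 (adjusted p = 0.0402) and UPF1 (adjusted p = 0.0409) were each lost in 11 of 28, of which 9 and 10 left out a library, with adjusted p values of up to 0.851 and 0.823.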

How the results depend on the processing

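Limits: with 2 libraries a group, leaving out 1 leaves a lone library, assumed to vary like the other groups. Each leave-out also redid the filter and the scaling, with 15223 to 15269 genes tested against 14887. Their effect cannot be told apart from that of the library left out. All 50 members had counts in every library, the lowest being 39, so depth limits DCP1B, PELO and EXOSC4 most, at 6 h. The GC correction was chosen after seeing the data. Shares of all genes are not given for the settings below, so the counts there describe the members alone.

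At 0 h, the count of members for shMETTL14 minus shCtrl (33) ran from 25 to 43 over all alternatives and from 29 to 33 with 1 library left out. For shSETD2 minus shCtrl (16) it was 25 by library totals alone (3 higher, 22 lower) and 27 without the GC trend (7 and 20), 18 with RLE (6 and 12), 15 with DESeq2 (4 and 11), 22 with a mean of at least 5 CPM (5 and 17), 24 with limma (3 and 21), and 11 to 16 with 1 library left out. For shSETD2 minus shMETTL14 (30) limma gave 21 (10 higher, 11 lower) and 23 (12 and 11), and leave-outs gave 18 to 22, the lowest without shMETTL14 replicate 2 and 19 without shSETD2 replicate 2. Slopes within a line kept counts of 36 to 43 in shSETD2, 41 to 45 in shMETTL14 and 35 to 41 in shCtrl with 1 library left out.

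Slope differences were less stable. For shSETD2 minus shCtrl (8), slopes over 0, 1 and 3 h gave 0 and over 1, 3 and 6 h gave 3. Leave-outs gave 4 to 25, with 25 without shSETD2 replicate 2 at 6 h, 4 without shSETD2 replicate 1 or shCtrl replicate 2 at 6 h or either shCtrl library at 0 h, and 5 without either shSETD2 library at 0 h. For shMETTL14 minus shCtrl (5), library totals alone gave 11, limma 11 and 10, the GC correction 9, slopes over 0, 1 and 3 h 0, and leave-outs 1 to 6, with 1 without shMETTL14 replicate 2 or shCtrl replicate 2 at 0 h and 3 without shCtrl replicate 1 at 0 h. For shSETD2 minus shMETTL14 (7), library totals alone and the GC correction gave 11 each, slopes over 0, 1 and 3 h 0 (3 members at an unadjusted p under 0.05), and leave-outs 3 to 24, with 24 without shSETD2 replicate 2 at 6 h, 3 without shSETD2 replicate 2 at 0 h or shMETTL14 replicate 2 at 6 h, and 4 without shMETTL14 replicate 1 at 0 h. The cause was not tested.

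With a replicate block the counts were 18, 34 and 32 at 0 h for shSETD2 minus shCtrl, shMETTL14 minus shCtrl and shSETD2 minus shMETTL14, and 12, 8 and 10 for the slope differences. With a replicate block within each line the slope differences gave 12, 7 and 11. The labels name no shared culture or day for a replicate number, and the block was not used in the reported values. Over 66 pairs of groups, the correlation of deviations between libraries of the same number ran from -0.105 to 0.373, with 23 over 0.1 and 1 under -0.1. Between the 6 h groups of the 3 lines it was 0.213 to 0.317, so some groups deviated together and others did not.

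Many values that did not pass changed sign in some setting: 18 of 50 members for shSETD2 minus shCtrl and 6 for shMETTL14 minus shCtrl at 0 h, and 35 and 30 of 50 for the slope differences. Values that changed sign and passed with either sign were, for shSETD2 minus shCtrl at 0 h, CNOT1 at -0.12 by library totals alone and by both limma fits and at -0.075 without the GC trend, DDX6 at -0.11 and HBS1L at -0.13 without the GC trend. SKIV2L turned to -0.11 without the GC trend for shMETTL14 minus shCtrl. UPF1 turned to -0.033 by library totals alone and to -0.033 and -0.031 with limma for shSETD2 minus shMETTL14. Among slope differences that passed with either sign, CNOT1 turned to 0.023 with a mean of at least 5 CPM and 0.020 without the GC trend for shSETD2 minus shCtrl, and EDC3 to -0.0027 over 0, 1 and 3 h for shSETD2 minus shMETTL14.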

Other observations

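Among the 70 further decay genes, slopes in actinomycin D differed from shCtrl for 7 in shSETD2 (10%, against 7.94% of all genes) and 6 in shMETTL14 (8.57%, against 5.21% of all genes), all more negative. In shMETTL14 these included LSM14B (-0.091 log2 per h, adjusted p = 2.54e-05), TOB1 (-0.15, adjusted p = 0.0012), SMG8 (-0.16, adjusted p = 0.00223) and ETF1 (-0.060, adjusted p = 0.00398). TOB1 recruits CCR4-NOT to mRNAs, SMG8 is a regulator of SMG1, and ETF1 is the release factor that reads stop codons. In shSETD2 they included NCBP1 (-0.059, adjusted p = 0.0115), ZCCHC6 (-0.089, adjusted p = 0.0141), PDE12 (-0.081, adjusted p = 0.0164) and ZCCHC8 (-0.091, adjusted p = 0.0164). NCBP1 binds the cap in the nucleus, ZCCHC6 adds uridines to tails, and ZCCHC8 links the nuclear exosome to its targets.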
